A study of Mus musculus with 4 samples.

Results

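A set of 30 genes that define or mark the pluripotent state was followed through a comparison of cells with and without LSH. They were chosen by name as pluripotency and ES identity genes, for their known roles, and are 30 of the 26031 gene models of the GENCODE M1 annotation of mouse genome build mm9. The measurement was genomic 5-hydroxymethylcytosine (5hmC), the oxidised form of methylated cytosine made by the TET enzymes. The data are lists of 5 kb bins that the authors called differential in 5hmC between LSH knockout and wild type. For each gene the bins in the gene body or the 5 kb upstream of its start were counted apart from those in the rest of a window reaching 20 kb past either end. A bin counted if it overlapped the interval at all.

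LSH, encoded by Hells, is a chromatin remodeler of the SNF2 family. The 4 groups were wild-type ES cells, LSH knockout ES cells, wild-type embryonic fibroblasts (MEFs) and LSH knockout MEFs, with 1 library each. ES cells grew in medium with serum and LIF, MEFs in serum. The sources used here do not state the strain, the knockout allele, the age of the embryos or the number of clones or animals. One list was deposited per cell type, with 8545 bins for ES cells and 8972 for MEFs on chromosomes 1 to 19 and X. The lists give position only. They hold no level, fold change, p-value or direction, so a listed bin is called altered, without saying whether 5hmC rose or fell. The depth of the libraries is unknown, there is no replicate error, and the cell type labels could not be checked against marker levels. No difference between ES cells and MEFs, or between gene groups, was tested, and bracketed ranges are exact 95% binomial intervals that cover counting error alone, since bins of 1 library do not replicate it.

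Pluripotency rests on a network of transcription factors led by OCT4 (Pou5f1), SOX2 and NANOG. In the naive state, that of the pre-implantation epiblast and of ES cells, it is reinforced by factors such as ESRRB, the KLFs and TFCP2L1. On the way to the primed state of the post-implantation epiblast those factors are lost and genes such as Otx2 and Fgf5 come on. In fibroblasts most of these genes are silent, and several are methylated at their promoters. Enhancers of active pluripotency genes are known to carry 5hmC in ES cells.

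Pluripotency genes were reached by altered bins in more cases in ES cells than in MEFs. In ES cells 15 of the 30 genes (50% [31.3% to 68.7%]) had an altered bin in the window, against 33.1% of all gene models. That interval holds 33.1%, so by gene count the ES share could not be told from the share of all models. In MEFs 2 of 30 (6.67% [0.818% to 22.1%]) did, against 22.8% of all gene models. Both intervals take genes as independent, though some members share a bin. All 15 were altered in ES cells only, where 21.7% of all gene models were, and the other two, Dppa5a and Fgf5, in MEFs only, against 11.4%. No member was reached on both lists, against 11.5% of all models, and 13 members were reached on neither.

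The sequences below belong to altered ES bins at 4 of the members, and show where CpG, the site of most mammalian 5hmC, lies in them. CpG dinucleotides are in capitals. The first pair are the 250 bases before the starts of Tcl1 and Otx2, 2 of the genes whose start lay inside an altered bin, read along the gene (mm9, minus strand, chr12:106460948-106461197 and chr14:49287320-49287569). They match the RefSeq promoter records of the 2 genes, which are from build GRCm38.p6. The others are the 200 bases richest in CpG, outside annotated exons, of the bin upstream of Sox2 (plus strand, chr3:34540925-34541124) and of the 2 bins in Esrrb (plus strand, chr12:87766474-87766673 and chr12:87776057-87776256). A bin is 5 kb, so the list does not place the altered cytosines within these stretches.
Tcl1 upstream: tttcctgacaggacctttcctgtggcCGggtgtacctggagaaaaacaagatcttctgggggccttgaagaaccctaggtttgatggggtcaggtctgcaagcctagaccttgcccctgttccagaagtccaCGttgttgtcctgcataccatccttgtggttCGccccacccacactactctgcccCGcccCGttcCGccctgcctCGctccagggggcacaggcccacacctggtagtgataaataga
Otx2 upstream: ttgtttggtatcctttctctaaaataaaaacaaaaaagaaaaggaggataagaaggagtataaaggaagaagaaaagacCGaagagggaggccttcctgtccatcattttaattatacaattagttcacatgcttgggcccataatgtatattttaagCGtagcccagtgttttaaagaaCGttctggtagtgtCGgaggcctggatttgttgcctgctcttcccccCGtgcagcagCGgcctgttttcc
Sox2 upstream bin: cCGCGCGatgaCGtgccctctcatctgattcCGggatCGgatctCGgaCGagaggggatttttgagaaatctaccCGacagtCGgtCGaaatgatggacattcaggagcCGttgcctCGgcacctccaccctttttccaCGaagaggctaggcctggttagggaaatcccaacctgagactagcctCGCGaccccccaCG
Esrrb bin, first: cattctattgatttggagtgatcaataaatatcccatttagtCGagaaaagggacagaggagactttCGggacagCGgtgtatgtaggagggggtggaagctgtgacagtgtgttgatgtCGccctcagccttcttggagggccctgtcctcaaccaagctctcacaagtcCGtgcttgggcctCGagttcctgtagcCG
Esrrb bin, second: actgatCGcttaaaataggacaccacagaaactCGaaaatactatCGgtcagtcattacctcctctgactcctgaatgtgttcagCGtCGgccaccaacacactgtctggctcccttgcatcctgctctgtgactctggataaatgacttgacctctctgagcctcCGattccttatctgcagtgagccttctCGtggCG
The stretches hold 7, 6, 17, 7 and 8 CpG in this order. Among the stretches picked as the richest of their bins, that of Sox2 holds the most, in 200 bases. The promoters of Tcl1 and Otx2 were not picked by CpG, so they are not ranked against it. They hold 7 and 6 in 250 bases, against a median of 9 over the 16146 gene models in the promoter table. Over the 19 members in the RefSeq promoter table, the 250 bases before the start held from 2 CpG, at Nr5a2, to 41 at Lin28b, with a median of 10.

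In gene bodies and the 5 kb upstream, 7 of 30 members (23.3%) had an altered ES bin, against 19.8% of all gene models, a share near the background. In MEFs 2 of 30 did (6.67%), against 14.1%. Both MEF calls rest on the edge of a bin, since neither gene was reached when the bin's midpoint had to lie in the interval. Gene size matters to such a count, and the members are short, with a median length of 6847 bp against 13590 bp for all models. Of the 24 members whose body and upstream region span up to 5 bins, 6 were altered in ES cells, against 10.6% of all models of that size, and 1 in MEFs, against 6.19%. Of the 6 longer members 1 was altered in ES cells, against 31.7%, and 1 in MEFs, against 24.2%. The single long member altered in ES cells was Esrrb, while Nr5a2, Lin28b, Tfcp2l1, Sall4 and Fgf5 had no ES bin there.

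**Figure D1:**
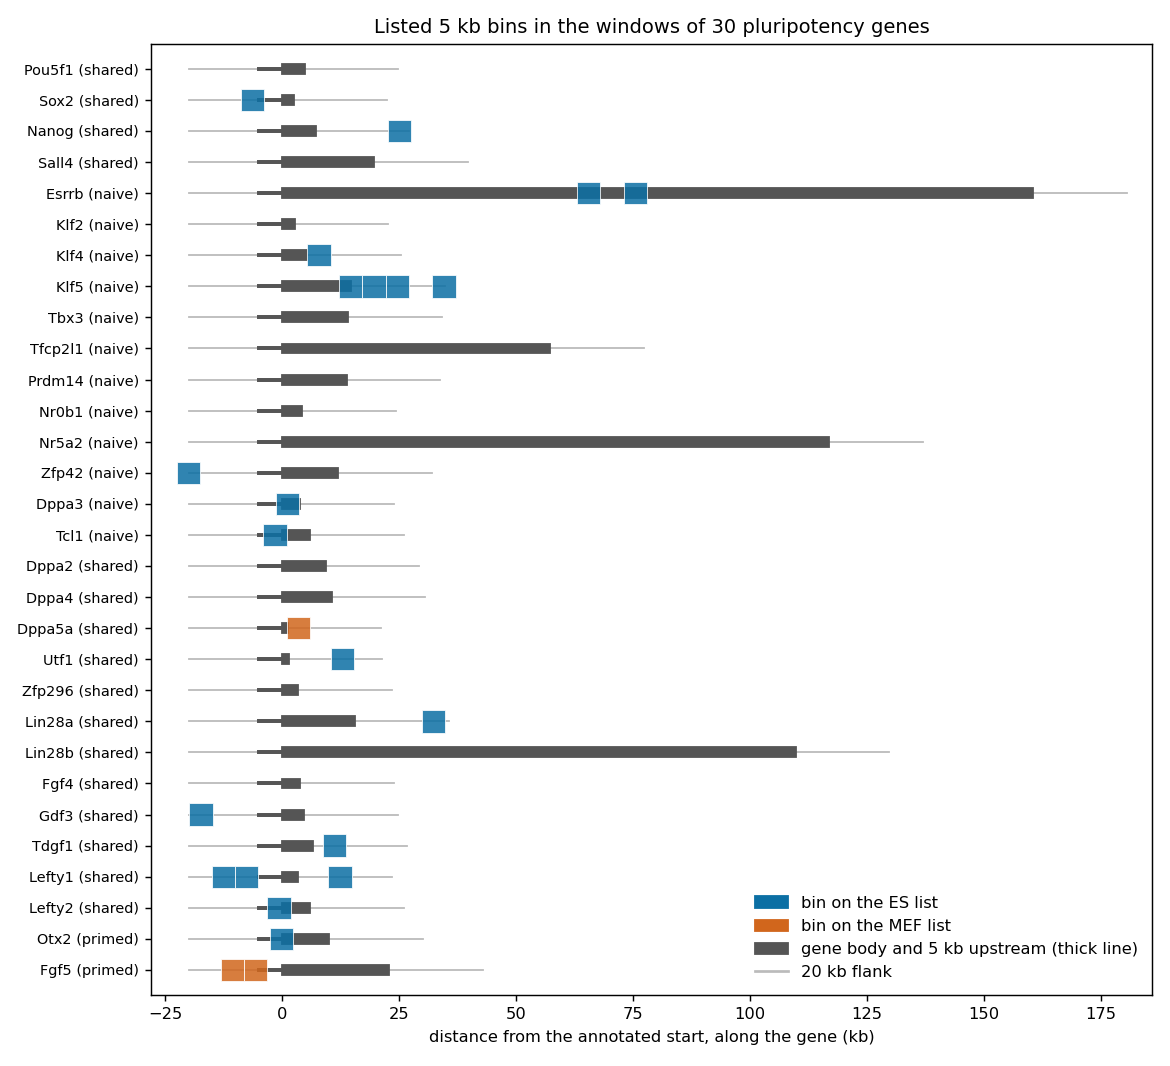
Altered bins in the windows of the 30 members, drawn to scale along each gene from its annotated start (kb). Blue boxes are ES bins, orange boxes MEF bins, dark bars the gene body and 5 kb upstream, and grey lines the 20 kb flanks. Blue boxes lie at 15 genes and orange boxes at Dppa5a and Fgf5.

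Bins were also counted in place of genes, so that a long gene weighs by its length. The windows of the 30 members held 390 distinct bins. In ES cells 20 of these were altered, or 5.13% [3.16% to 7.81%], against 2.41% of the bins in the windows of all gene models. In MEFs 3 were, or 0.769% [0.159% to 2.23%], against 2.26%. The ES share was thus above that of all windows and the MEF share below it, and in both the interval did not reach the value of all windows. These intervals take bins as independent, though 5 of the 20 ES bins and 2 of the 3 MEF bins touched another listed bin. They also leave out CpG density, and at like density the ES interval held the genome value of 3.32%. Of the 20 ES bins, 8 lay in bodies or upstream regions and 12 in the flanks, which is 4.17% of the former [1.82% to 8.04%] and 6.06% of the latter [3.17% to 10.3%]. The intervals overlap, so bodies and flanks could not be told apart. Of these 12 flank bins, 8 lay in no other gene, and 4, near Nanog, Utf1, Lin28a and Lefty1, lay in or just upstream of another one. Without bins that reach another gene, the members with an ES bin in the window fell from 15 to 10 of 30, against 17.7% of all gene models under the same rule, and Sox2, Nanog, Utf1, Lin28a and Gdf3 were lost. In MEFs the count stayed at 2 of 30, against 13.8%. This alternative was added for the window after its values were seen.

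**Figure D2:**
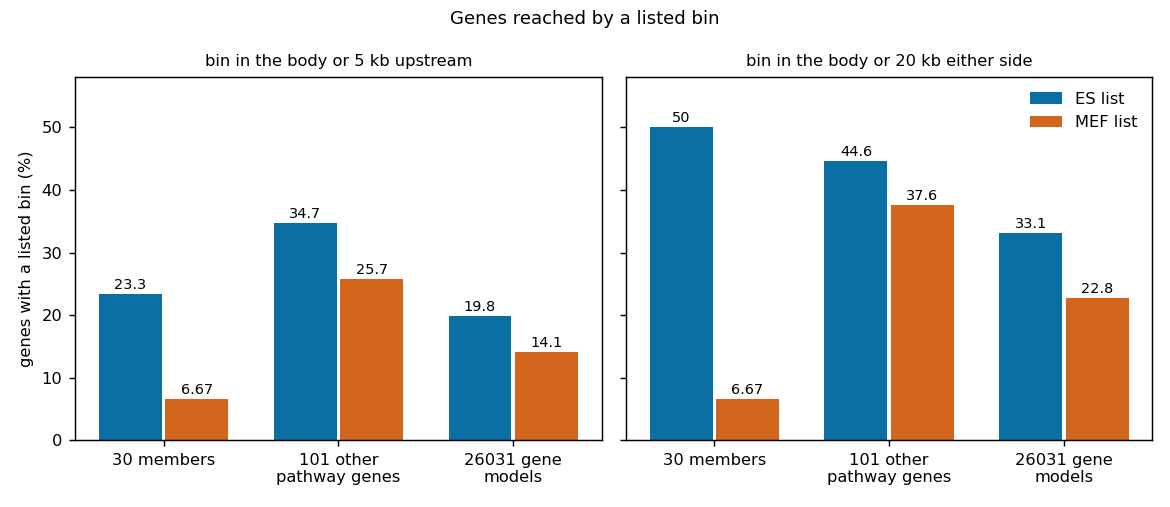
Percentage of genes with an altered bin, for the 30 members, for 101 other genes of the same pathways and for all 26031 gene models, with the body and 5 kb upstream on the left and the wider window on the right. Blue bars are the ES list and orange bars the MEF list. In the wider window the members stand at 50% in ES cells and 6.67% in MEFs, and the other pathway genes at 44.6% and 37.6%.

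The counts by role below are of 9 genes or fewer, and 33.1% of all gene models had an ES bin in the window and 19.8% in the body or upstream region, so they describe these genes only. On the MEF list the shares of all gene models were 22.8% and 14.1%, so with so few genes a count of 0 says little. Among the 4 core factors, Sox2 and Nanog had an ES bin in the window, and Pou5f1 and Sall4 had none. The Sox2 bin (chr3:34540001-34545000) ended 3.93 kb upstream of the gene and had 22.2 CpG per kb. It lies in an intron of Sox2ot, the non-coding transcript that spans Sox2, so it cannot be assigned to Sox2 alone. The Nanog bin (chr6:122680001-122685000) began 15.4 kb past the end of the gene, in an exon bin of Slc2a3, which encodes the glucose transporter GLUT3. Pou5f1, the OCT4 gene (chr17:35642982-35647721), was 62.0 kb from the nearest ES bin and 42.0 kb from the nearest MEF bin. Sall4, a zinc finger partner of OCT4, was 61.6 kb from the nearest ES bin. On the MEF list the nearest bin to Sox2 was 1336 kb away, so that none lay near it.

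Of the 9 naive transcription factors, 3 had altered ES bins in the window, Esrrb, Klf4 and Klf5, a share near the 33.1% of all gene models. None had a MEF bin, against 22.8% of all gene models. Esrrb, an orphan nuclear receptor gene of 160512 bp, had 2 intron bins, chr12:87765001-87770000 and chr12:87775001-87780000. They lie 65.4 and 75.4 kb inside the gene with a single unlisted bin between them, and hold 10.6 and 15.0 CpG per kb. The start of Esrrb itself was 62.9 kb from them, so nothing at its annotated promoter was listed. No MEF bin lay within 503 kb of that start.

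Klf5, a Krüppel-like factor that supports self-renewal, had 4 ES bins, the most of any member. One covered the 3′ end of the gene (chr14:99710001-99715000, 18.6 CpG per kb). The next 2 followed it without a gap, up to 99725000, and the last, chr14:99730001-99735000, began 17.4 kb past the gene. The 3 bins outside the gene are intergenic, so the altered stretch ran downstream from the last part of Klf5, and its start, 12.1 kb away from the first bin, was not in it. Klf4, used with OCT4 and SOX2 in reprogramming, had 1 intergenic bin (chr4:55535001-55540000), which ends 0.013 kb short of the 3′ end of the gene and therefore counts as flank. Its CpG density, 9 per kb, was the lowest of the 20 ES bins.

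The other 6 naive factors had no altered bin in the window on either list. For Klf2, Tbx3 and Prdm14 the nearest ES bin was 52.1, 59.3 and 62.8 kb from the start, and for Tfcp2l1 85.5 kb. Nr5a2, a nuclear receptor that can replace OCT4 in reprogramming, had none in its 116844 bp, with the nearest ES bin 207 kb away. Nr0b1, the DAX1 gene, lies on chromosome X, where the ES list has 18 bins in all, or 0.0555% of that chromosome. Its nearest ES bin was 15423 kb away. The absence of a bin there says little about Nr0b1 itself.

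Among 8 ES cell markers, 4 had ES bins in the window and 1 a MEF bin, against 33.1% and 22.8% of all gene models. Dppa3, or Stella, a maternal factor that guards DNA methylation in the early embryo, was altered over its start (chr6:122575001-122580000, 20.8 CpG per kb). The bin covers most of this 3863 bp gene. It was also the bin counted in the upstream flank of Gdf3, 14.9 kb from that gene, so these 2 members share it. Tcl1, a co-activator of AKT, was altered over its start as well (chr12:106460001-106465000, 21.4 CpG per kb). Zfp42, the REX1 gene, had 1 intergenic bin 17.6 kb upstream (chr8:44410001-44415000). Utf1, a chromatin-bound ES cell protein, had 1 bin 8.99 kb downstream (chr7:147140001-147145000), a promoter bin of the predicted genes Gm16201 and Gm2044.

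Dppa5a was the only ES marker with a MEF bin (chr9:78210001-78215000, 12 CpG per kb). That bin overlaps the 3′ end of this 1126 bp gene and stops 0.984 kb from its start, while the nearest ES bin was 94.0 kb away. Dppa2 and Dppa4, neighbours on chromosome 16 that act as a pair in opening chromatin, were 319 and 346 kb from the nearest ES bin, and 1304 and 1331 kb from the nearest MEF bin. Zfp296 had its nearest bins at 82.6 kb in ES cells and 77.6 kb in MEFs, in neighbouring bins on its upstream side.

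Of the 5 secreted signals and co-receptors, 4 had an ES bin in the window and none a MEF bin, against 33.1% and 22.8% of all gene models. In the body or upstream region only Lefty2 had one, 1 of 5 against 19.8% of all gene models, and the other 3 were reached in the flank alone. These belong to the Nodal and FGF pathways, in which Nodal signals through the co-receptor Tdgf1 (Cripto) and is inhibited by the Lefty proteins. Lefty2 was altered over its start (chr1:182820001-182825000, 22.2 CpG per kb). Lefty1, the next member along the chromosome, had 2 touching intergenic bins upstream, chr1:182850001-182860000, and 1 downstream in an exon bin of Tmem63a (chr1:182875001-182880000). The windows of the Lefty pair thus held 4 altered bins, and within 100 kb of either start there were 6. Tdgf1 had 1 intergenic bin 2.11 kb past its end (chr9:110835001-110840000), and Gdf3, a ligand related to Nodal, had the bin it shares with Dppa3. Fgf4, whose protein drives cells out of the naive state, was 218 kb from the nearest ES bin.

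The RNA-binding proteins LIN28A and LIN28B block maturation of let-7 microRNAs. Lin28a had 1 ES bin 14.2 kb downstream, in an intron of Dhdds (chr4:133540001-133545000). Lin28b had none in its 109776 bp, and its nearest ES bin was 926 kb away, against 181 kb for MEFs.

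The primed genes differed from each other in which list reached them. Otx2, a homeobox factor that moves cells to the primed state, was altered over its start in ES cells (chr14:49285001-49290000). At 38.8 CpG per kb this bin was the richest of the 20. Its nearest MEF bin was 37.7 kb from the start. Fgf5, a classical marker of the primed epiblast, had no ES bin in the window but 2 touching MEF bins, chr5:98670001-98680000, both intergenic and the nearer one 3.20 kb upstream. Its nearest ES bin was 46.8 kb from the start.

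Set side by side, 6 of 12 naive genes (50%), 8 of 16 genes shared by both states (50%) and 1 of 2 primed genes (50%) had an ES bin in the window. All gene models stood at 33.1%, which the interval of each group holds, that of the naive genes being [21.1% to 78.9%]. In bodies and upstream regions the counts were 4 of 12, 2 of 16 and 1 of 2, against 19.8% of all gene models. In MEFs they were 0 of 12 naive genes in the window, which allows a share of up to 26.5% at the exact 95% limit, 1 of 16 shared and 1 of 2 primed. All gene models stood at 22.8% there, which is under that limit. By bins, 5.24% of the naive windows, 5.56% of the shared windows and 4% of the primed windows were altered in ES cells, against 2.41% for all gene models. The 12 naive genes were the 9 naive factors, 3 of them reached in ES cells, with Zfp42, Dppa3 and Tcl1, which were all reached. Dppa5a was counted as shared. Under this split the naive and primed genes were reached in the same proportion in ES cells, but with 2 primed genes a difference was not detectable. With a wider split 8 of 17 naive and 3 of 5 primed genes were reached, so the equal proportion depends on how genes were assigned.

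**Figure D3:**
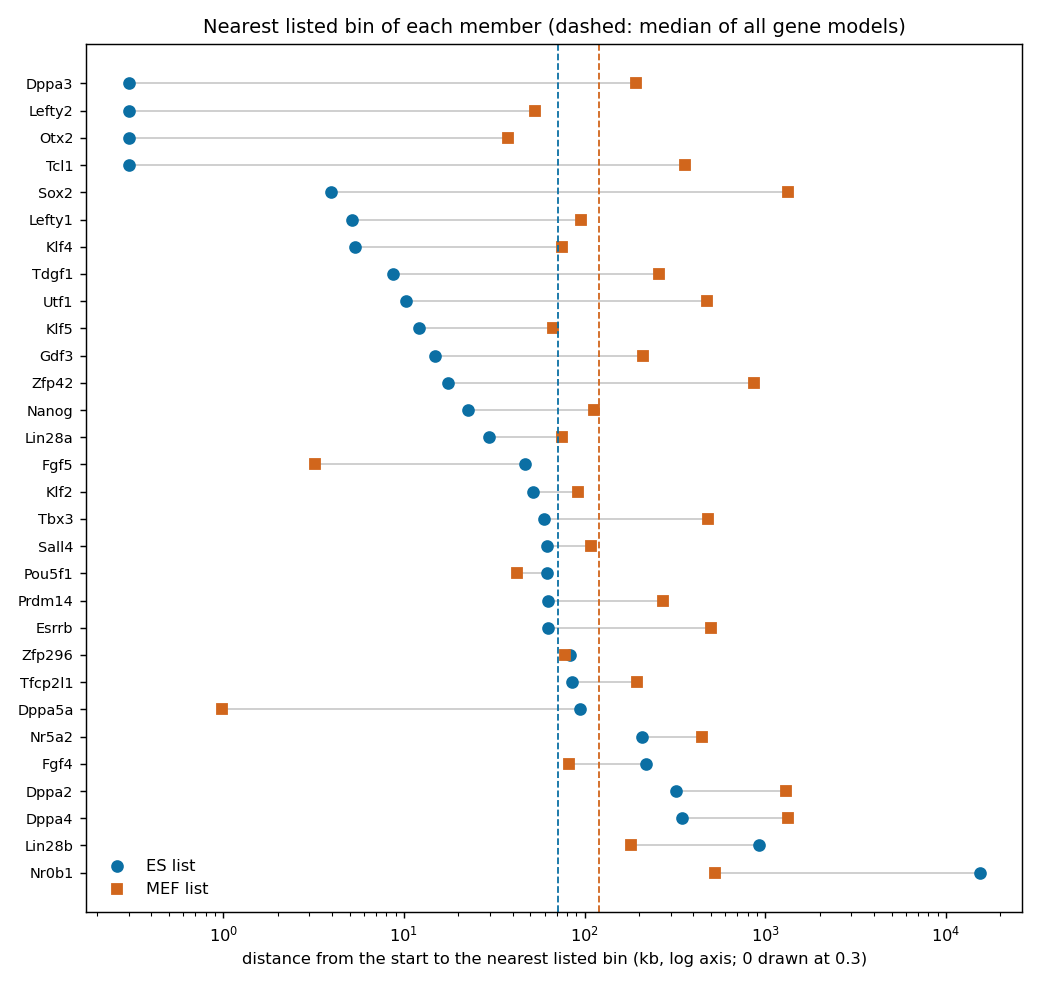
Distance from the annotated start of each member to the nearest altered bin (kb, log axis, 0 drawn near the left edge), with blue circles for the ES list, orange squares for the MEF list and dashed lines for the medians of all gene models. For 23 of 30 members the ES bin is the nearer one.

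The distance from the start to the nearest altered bin gives a value for every member. The median was 49.4 kb in ES cells, against 71.4 kb for all gene models, and 187 kb in MEFs, against 120 kb. By these medians the members lay nearer to ES bins, and farther from MEF bins, than gene models at large. The ranges between quartiles overlapped, at 9.07 to 84.8 kb against 22.4 to 248 kb in ES cells. In MEFs they were 75.5 to 468 kb against 39.0 to 331 kb. The ES bin was the nearer of the pair for 23 of 30 members (76.7%), and for 57.6% of all models. The 7 exceptions were Fgf5, Dppa5a, Pou5f1, Zfp296, Fgf4, Lin28b and Nr0b1. In ES cells 4 of 30 starts (13.3%) lay inside an altered bin, those of Dppa3, Tcl1, Lefty2 and Otx2, against 3.10% of all models. In MEFs none did, against 2.39%. Neither the distances nor the starts were compared at like CpG density.

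Along the genes, 3 of the 30 bins with a midpoint in the 5 kb before a start were altered in ES cells, or 10.0% [2.11% to 26.5%], against 2.90% around all gene models. From 5 to 20 kb and from 20 to 50 kb past the start the share was 6.67% in each, with 6 of 90 and 12 of 180 bins, against 3.38% and 3.14%. From 50 to 20 kb before the start it was 1.11%, with 2 of 180 bins, against 2.99%. Bins near 2 members, such as those of the Lefty and Dppa3 loci, count once for each. Of these intervals only that from 20 to 50 kb past the start [3.49% to 11.4%] lay above the value of all gene models and did not hold it. It takes bins as independent, though the Lefty pair, Klf5 and Utf1 each gave more than 1 of its 12 bins. It was also singled out among several distance classes and not matched for CpG density, so a difference there was not tested. From 50 to 100 kb past the start the share was 3.67%, against 3.02%. In MEFs the member shares were at or under those of all models except from 20 to 5 kb before and 0 to 5 kb after the start, with 2 and 1 bins.

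**Figure D4:**
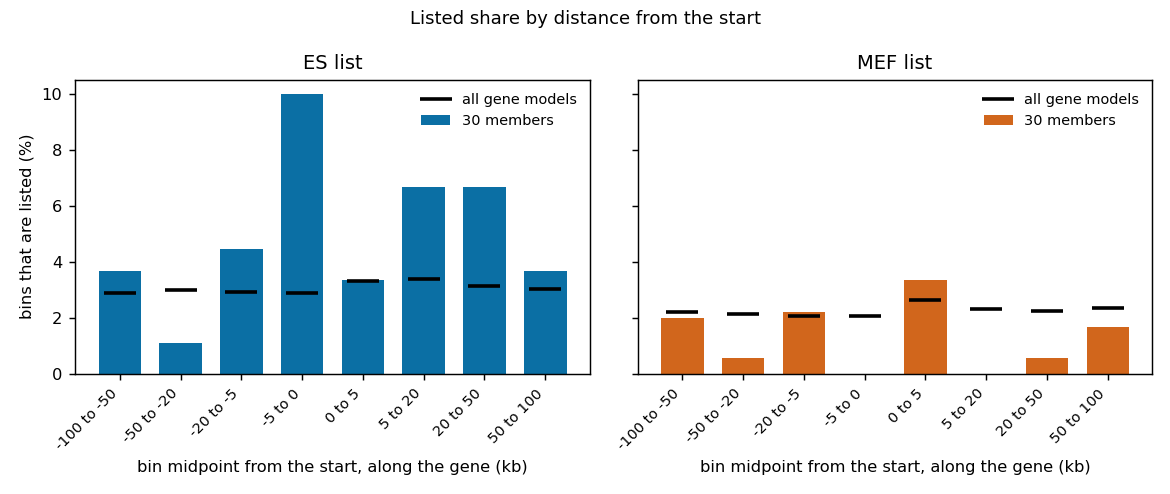
Percentage of bins that are altered, by distance of the bin midpoint from the start along the gene (kb), for the ES list on the left and the MEF list on the right. Bars are the 30 members and black marks all gene models. The ES bars stand at 10.0% in the 5 kb before the start and 6.67% from 5 to 50 kb after it.

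Bins on the ES list were richer in CpG than the genome, with a median of 12.6 CpG per kb against 7 over all bins, so the members were also set beside bins of like density. The 20 ES bins had a mean of 16.1 ± 6.74 CpG per kb (SD over bins), and the 367 unlisted bins of the same windows 13.0 ± 7.70. Among the 20 ES bins, the 8 in bodies and upstream regions were the richer, with a median of 21.1 against 13.2 for the 12 in the flanks. Unlisted bins were not split in this way, so the contrast is not shown to be particular to altered bins. Among member bins in the top 10% of the genome by CpG density, 10 of 105 were altered in ES cells, or 9.52% [4.66% to 16.8%], against 5.59% of all such bins. In the class below it, 8 of 133 were, or 6.02% [2.63% to 11.5%], against 4.14%. In MEFs the same 2 classes gave 1 of 105 and 1 of 133, or 0.952% [0.0241% to 5.19%] and 0.752% [0.0190% to 4.12%], against 3.72% and 3.98%. Taken 1 class at a time, the interval held the genome value in all 4 classes on both lists. Summed over the 4 classes at the genome's rates, 12.9 of the 390 bins (3.32%) would be altered in ES cells and 11.5 (2.96%) in MEFs, a comparison added after the values of the classes were seen. The ES interval of 3.16% to 7.81% holds 3.32%, so at like CpG density the higher ES share could not be told from counting error. The MEF interval of 0.159% to 2.23% lies below 2.96%. It rests on 3 bins, 2 of which touch, while the interval takes bins as independent, so a difference from like CpG density was not tested.

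**Figure D5:**
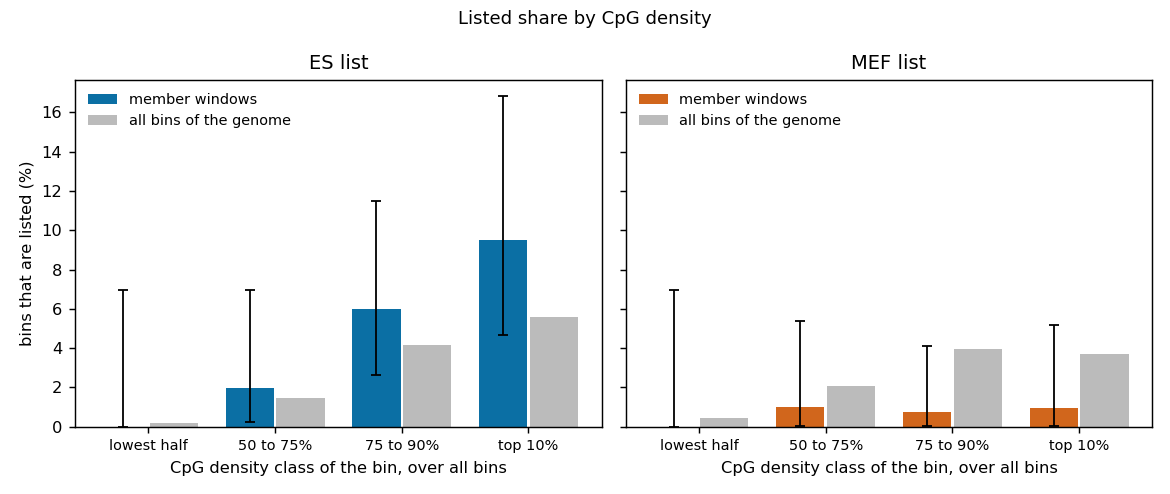
Percentage of bins that are altered, in 4 classes of CpG density taken from all bins of the genome, for the ES list on the left and the MEF list on the right. Coloured bars are bins of the member windows with exact 95% binomial intervals, and grey bars all bins of the genome. In the densest class the members stand at 9.52% in ES cells and 0.952% in MEFs.

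By position the 20 ES bins comprised 5 promoter bins (within 1 kb of an annotated start), 3 exon, 4 intron and 8 intergenic bins. The intergenic share, 40%, compares with 35.4% of all bins of the member windows and 29.0% of the whole ES list. The exon share, 15%, compares with 29.0% of the member windows and 36.0% of the list. The promoter share, 25%, compares with 16.7% of the member windows and 11.7% of the list. Of the 20 bins 5 (25%) touched another listed bin, at Klf5 and Lefty1, against 10.2% of the whole ES list. Known motifs of pluripotency factors were searched on both strands. The octamer ATGCAAAT, bound by OCT4, was in 4 of the 20 ES bins (20%), in 22.3% of the unlisted bins of the same windows and in 35.6% of all bins. The ESRRB motif TCAAGGTCA was in 4 of 20 (20%), in 70 of the 367 unlisted bins of the windows and in 10.2% of all bins. A SOX motif, ACAATGG, was in 10 of 20, in 49.0% of the unlisted bins and in 58.1% of all bins. None of the 3 motifs set the altered bins apart from their unlisted neighbours.

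A further 101 genes of the pluripotency pathways, none of them members, were counted in the same way. Of these, 45 had an ES bin in the window (44.6%, against 33.1% of all gene models), 38 a MEF bin (37.6%, against 22.8%) and 20 had both, against 11.5%. These genes are longer than the members, with a median of 17380 bp. In the body or upstream region 34.7% had an ES bin and 25.7% a MEF bin, against 19.8% and 14.1% of all gene models. Gene models that span over 5 bins stood at 31.7% and 24.2%, and those of up to 5 bins at 10.6% and 6.19%. The 101 genes include short and long ones and were not matched for size, so the part of gene length in these shares was not tested. Leaving out Fgfr2, whose model spans 37 other genes, 4.44% [3.50% to 5.54%] of their window bins were altered in ES cells and 3.84% [2.97% to 4.88%] in MEFs. The ES share thus lay within the members' interval, and the MEF share above the members' 0.769% and its interval.

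The counts of the 8 pathway lists are of 9 to 20 genes each and were not matched for gene size, so no list is set apart by them. They stand beside 19.8% of all gene models in ES cells and 14.1% in MEFs. Models over 5 bins stood at 31.7% and 24.2%, and those of up to 5 bins at 10.6% and 6.19%. Genes of the LIF pathway, the cytokine that keeps ES cells naive, had ES bins in 4 of 10 bodies and upstream regions and MEF bins in 3. Jak1, the kinase of the receptor, had 1 and 2. BMP and ID genes had 2 and 3 of 10, with the receptor gene Bmpr1a at 3 ES bins and 1 MEF bin, the receptor gene Acvr1 at 0 and 3, and Smad1 at 1 each. FGF and ERK genes had 4 and 5 of 11, with the receptor gene Fgfr1 at 3 and 1. The model of Fgfr2 held 35 and 15, which cannot be assigned among the genes it spans. WNT and TCF genes had 4 and 3 of 9, with Tcf7l1, a repressor of the naive network, at 2 each and Lef1 at 3 and 1. Nodal and activin genes had 3 of 9 on each list, with the receptor gene Acvr1b at 1 and 3, and the signal transducers Smad2 and Smad3 at 0 ES bins with 2 and 3 MEF bins.

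Other network factors had ES bins in 6 of 20 and MEF bins in 3 of 20, with Jarid2 at 1 and 2 and Cbx7, both genes of Polycomb complexes, at 1 each. Other naive markers had 5 and 3 of 15, with Pecam1, which is also an endothelial gene, at 3 each, the phosphatase gene Alpl at 1 and 2, and Mras at 0 and 2. Other primed markers had 7 and 3 of 17, with the methyltransferase gene Dnmt3b and the epithelial factor gene Grhl2 at 1 each. Of the window bins of all gene models, 0.112% were on both lists. None of the 390 bins of the member windows was [0% to 0.941%], which is near that share. In all, 5 of the 101 pathway genes, Fgfr2 apart, carried the same bin on both lists. The share of all gene models that do so was not counted, so this number has no background and describes these genes only. The bins on both lists were the promoter bin of Bmpr1a (chr14:35315001-35320000) and exon bins of Fgfr1 (chr8:26655001-26660000), Acvr1b (chr15:101020001-101025000), Pecam1 (chr11:106520001-106525000) and Alpl (chr4:137325001-137330000).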

How the data were processed

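The submitters' processing notes name BWA, SAMtools 1.3.1 and build mm9. The sources used here do not describe the counting of reads, the caller, its threshold or any input library. Each list deposited by the authors holds the chromosome, start, end and running number of 5 kb bins, and no measured value. The reference was NCBIM37, the assembly of mm9, with GENCODE M1. No listed bin ran past the end of its chromosome. Genes were protein-coding, lincRNA and processed transcript models on chromosomes 1 to 19 and X, the longest locus per name, and bins elsewhere were not used. Of the members 29 matched by symbol and 1, Tfcp2l1, by a RefSeq synonym; all 101 pathway symbols matched. All 30 members, and pathway genes with at least 2 body or upstream bins on a list or with a bin on both lists, were to be named. Members, lists and groups were chosen with earlier results of these data known. Overlap counts were checked against a slower method on simulated lists. Python 3.11.15, numpy 2.4.6, scipy 1.17.1 and matplotlib 3.10.9 were used. Bins with at least 50% known bases formed the genome background. The naive and primed split, the overlap rule, the flank, the upstream reach and the gene model were varied.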

Additional observations from a re-analysis of the deposited data

How the results depend on the processing

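Of 81 values recomputed under other settings, 69 stayed within 1.5 times, or within the interval or spread, of the value reported. The ES counts in bodies and upstream regions ran from 6 to 8, and Sox2 was the member lost with bin midpoints, with at least 50% of the bin required, with 2 kb upstream or without bins that reach another gene. The window counts in ES cells ran from 10 without bins that reach another gene, and 11 with a 10 kb flank, to 19 with a 50 kb flank. Of the 12 values that moved, 10 are counts of 5 or fewer and 2 are the background shares of bins, 3.32% in ES cells and 2.96% in MEFs when weighted by CpG class. The MEF count in bodies and upstream regions fell from 2 to 0 with bin midpoints, to 0 with at least 50% of the bin required and to 1 with 2 kb upstream. With a 50 kb flank 4 members and 5 bins were reached in MEFs (Pou5f1 and Otx2 were added), 2 members on both lists (Otx2 and Fgf5), and 2 primed genes on each list. With the wider naive and primed split, 1 naive member was reached in MEFs (Dppa5a) and 3 primed members in ES cells. The lists hold no score, so a stricter threshold was not run, and with 1 library per group no replicate could be left out. No paired analysis was possible because each group has 1 library. Unknown depth limits what an unlisted bin shows: it may be unaltered or too thinly covered to be called.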
